A study of Mus musculus with 12 samples.

Results

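The transcripts described here encode 10 cytokines of the inflammatory response, namely Tnf, Tnfsf9, Il1a, Il1b, Il18, Il1rn, Il6, Osm, Il12b and Il10. They were chosen by gene symbol, all 10 were found among the 55291 symbols of the deposited table, and all 10 passed the filter on low values that left 19633 genes for testing. RNA had been taken from alveolar macrophages, the phagocytes that live in the airspaces of the lung, after flow sorting from female C57BL/6NJ mice aged 8 to 11 weeks. A group of 6 mice had breathed 0.8 ppm ozone and the other group of 6 mice filtered air, in both cases for 4 h a day on 4 days in a row, and lungs were taken 3 days after the last session. The labels name no transgene or deletion for either group, and cells were sorted in 2 batches that each held 3 mice of each group.

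Macrophages release TNF and IL-1 within hours of a stimulus, and these ligands act through NF-kB on neighbouring cells to spread inflammation. IL-1 alpha and IL-1 beta share a receptor that the antagonist encoded by Il1rn occupies without signalling, and IL-18 is a relative that, like IL-1 beta, is cut by inflammasome caspases before release. IL-6 and oncostatin M signal through the shared gp130 chain, while IL-10 acts through STAT3 to restrain the same genes in the macrophage that makes it. Many of these mRNAs are short-lived because AU-rich stretches in their 3′ untranslated regions (UTRs) are bound by decay factors such as tristetraprolin, the product of Zfp36. Ozone tolerance is the state in which repeated exposure no longer brings the inflammation of the initial one. The title of the series names tolerance, which the expression values analysed here do not measure.

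The AU-rich sites are shown because Zfp36 was among the genes that differed between the groups. The heptamer TATTTAT, searched on the mRNA strand with overlapping matches counted, was present in the 3′ UTR of 8 of the 10 cytokine mRNAs and occurred at least 3 times in 5 of them. Among 14602 tested genes with an annotated 3′ UTR, 26.8% held it and 3.25% held it at least 3 times, with a median UTR length of 928.5 bases. Tnf had 8 copies in 764 bases, Il10 had 4 in 706, Il1b had 3 in 459, Il1a had 3 in 1101 and Osm had 3 in 1017. Tnfsf9 had 2 copies in 253 bases, Il6 had 1 in 427 and Il12b had 1 in 797, whereas Il18 (123 bases) and Il1rn (1306 bases) had 0. A match is a description of the letters and not a measured binding site. The densest windows of 30 bases of 4 of these mRNAs are written 5′ to 3′ from GENCODE M21 transcripts (GRCm38, the build also named mm10), with the heptamers in capitals.
Tnf, chr17:35199678-35199707, minus strand: tTATTTATTATTTATTTATTATTTATTTAT
Il1b, chr2:129364800-129364829, minus strand: taccTATTTATTTATgTATTTATtgattgg
Il1a, chr2:129300101-129300130, minus strand: tatgTATTTATaaataTATTTATgataatt
Il10, chr1:131024392-131024421, plus strand: gaaaTATTTATtacctctgatacctcagtt
The Tnf window held 5 heptamers, that of Il1b 3, that of Il1a 2 and that of Il10 1. Of the windows not printed, that of Osm held 2 and those of Tnfsf9, Il6 and Il12b held 1 each, as many as that of Il10.

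Expression was deposited on a log2 scale after variance stabilization, and each gene is centred so that filtered air averages 0. The level of a gene relative to other genes was therefore not kept, and the scale compresses differences where reads are few. Total read numbers are unknown. Relative depth, taken from the size of 1 read in each library, ranged from 0.872 to 1.22, with means of 1.01 ± 0.149 for ozone mice and 0.998 ± 0.104 for filtered-air mice (SD, n = 6 each, exact permutation test, two-sided, p = 0.82). RNA integrity numbers were 9.48 ± 0.172 and 9.42 ± 0.293 (SD, n = 6 each, exact permutation test, two-sided, p = 0.747). All 12 listed markers of alveolar macrophages, among them Siglecf, Marco, Pparg and Car4, lay above the lowest shared value in 12 of 12 mice. So did 17168 of the 19633 genes tested, with every tested marker of other cell types, so this does not measure purity. Of the 12 alveolar macrophage markers 3 had a limma adjusted p under 0.05, against 4.25% of all genes tested. Car4 (0.32, limma adjusted p = 0.046) and Chil3 (0.25, adjusted p = 0.032) were higher after ozone, and Krt79 (-0.35, adjusted p = 0.0177) was lower. The part of these differences in the cytokine values was not tested. In these bulk samples, fewer cells that express a gene and less RNA per cell cannot be told apart.

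None of the cytokine transcripts passed the adjusted threshold, and the share that passed was close to that of other genes. In limma, 0 of the 10 had an adjusted p under 0.05, against 4.25% of all genes tested. At an unadjusted p under 0.05 there were 2 of 10, Tnf with a lower and Il10 with a higher mean after ozone, against 16.7% of all genes tested. In 6 of the 10 the ozone mean was the higher, against 48% of all genes tested, and the median difference was 0.057 against -0.0033 over all genes tested. The values of the groups overlapped in all 10, while 3.53% of all genes tested had separate groups.

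**Figure D1:**
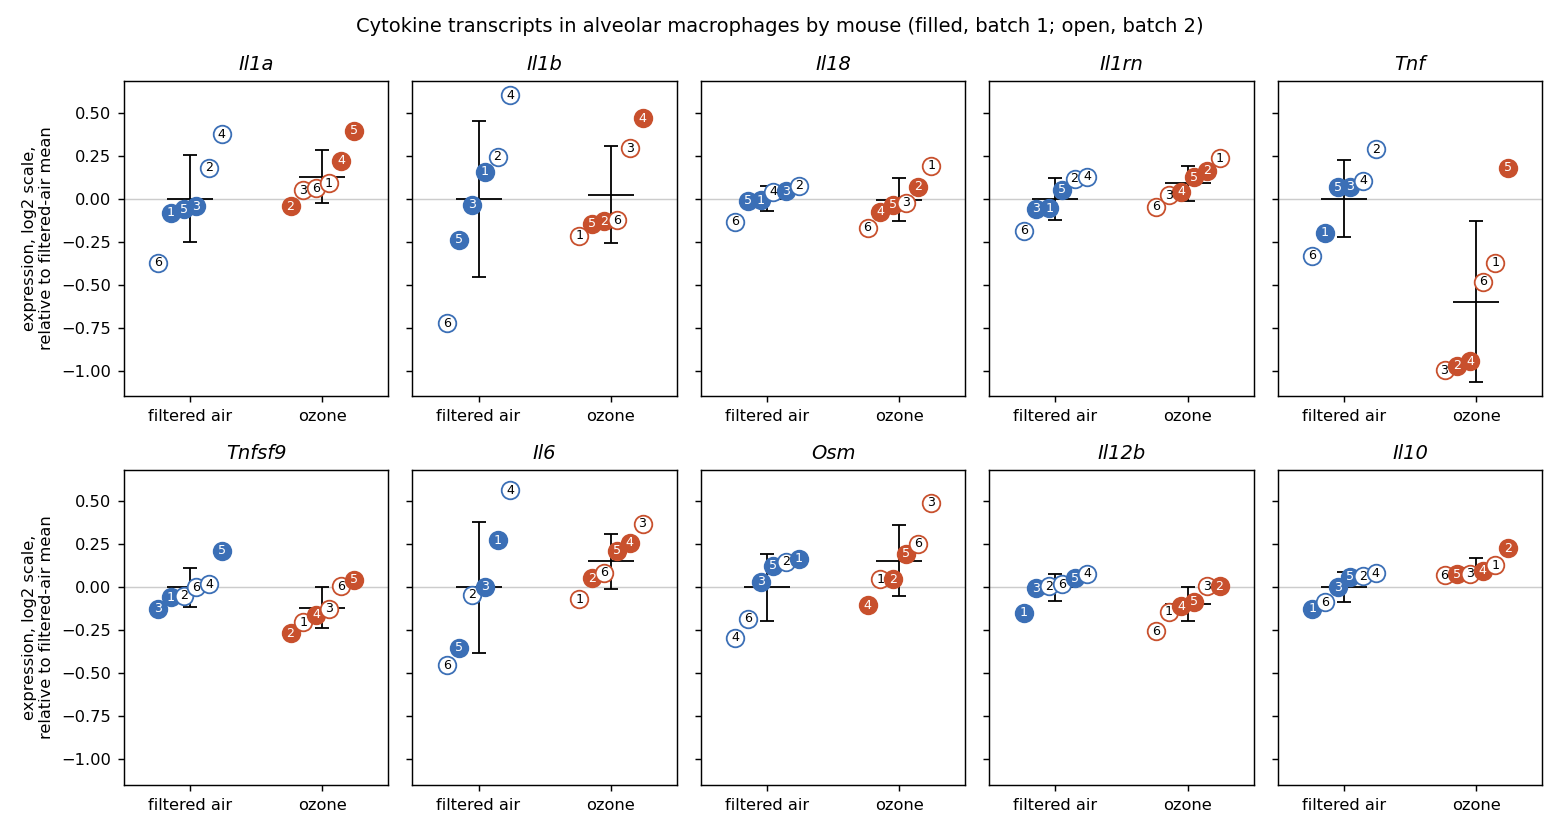
Expression of the 10 cytokine genes in each mouse on a log2 scale relative to the filtered-air mean, with numbers that name the mouse, filled circles for flow-sort batch 1 and open circles for batch 2. Horizontal bars are group means and whiskers the SD (n = 6). Of the 6 ozone mice 5 lie below every filtered-air mouse in Tnf, and ozone mouse 5, at 0.18, does not.

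Tnf, the founding ligand of the TNF superfamily, had the largest difference of the 10. Values in filtered air ranged from -0.33 to 0.29 with a median of 0.069, and values after ozone from -0.996 to 0.18 with a median of -0.71. In 5 of 6 ozone mice Tnf lay below every filtered-air mouse, and 3 of these, mice 2, 3 and 4, lay between -0.996 and -0.95. Ozone mouse 5, at 0.18, lay above 5 of the 6 filtered-air mice.

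The mean of Tnf was -0.60 ± 0.467 (SD, n = 6) after ozone against 0 ± 0.225 in filtered air. The difference was -0.60 (SE 0.18, 95% interval -0.98 to -0.21, limma adjusted p = 0.0813), which missed the threshold. It was -0.56 within flow-sort batch 1 and -0.64 within batch 2. Without ozone mouse 5 the difference was -0.77 with an adjusted p of 0.00611, and this was the only one of the 12 fits without a single mouse in which Tnf passed, the others giving up to 0.18. Ozone mouse 5 had the greatest relative depth of the series, 1.22. It had the highest summed level of its group in 3 of 10 marker lists of other cell types. These were the lists of monocytes (0.59), interstitial macrophages (1.51) and NK cells (0.13). In its group of 6 mice it ranked 5 from the top for neutrophil (-0.0096) and B cell (-1.47) markers and 4 for epithelial markers. The part of depth and of other cells in its Tnf value was not tested.

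Tnfsf9, which encodes the ligand of the costimulatory receptor 4-1BB, was the other member of the TNF superfamily. Its values ranged from -0.12 to 0.21 in filtered air and from -0.27 to 0.043 after ozone, with medians of -0.025 and -0.14. Mice 1, 2 and 4 of the ozone group lay below every filtered-air mouse, and ozone mouse 5 was again the highest of its group. The difference was -0.12 (SE 0.064, 95% interval -0.25 to 0.019, limma adjusted p = 0.392), and -0.070 without filtered-air mouse 5. Within the batches it was -0.14 and -0.096.

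Among the IL-1 family agonists, Il1a ranged from -0.37 to 0.38 in filtered air (median -0.052) and from -0.044 to 0.39 after ozone (median 0.076). All 6 ozone mice lay above the filtered-air median, yet only ozone mouse 5 lay above every filtered-air mouse. The difference was 0.13 (SE 0.106, 95% interval -0.098 to 0.36, limma adjusted p = 0.621). It was 0.25 within batch 1 and 0.0054 within batch 2. It was 0.046 without filtered-air mouse 6, 0.070 without ozone mouse 5 and 0.21 without filtered-air mouse 4.

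Il1b, whose product needs cleavage before it is active, had the widest spread in filtered air of the 10, from -0.72 in mouse 6 to 0.60 in mouse 4 (median 0.060). Ozone mice ranged from -0.21 to 0.47 with a median of -0.13 and lay inside that range. The difference was 0.024 (SE 0.185, 95% interval -0.37 to 0.42, limma adjusted p = 0.972), so the interval spans changes in either direction that are larger than the called differences of several related genes given further on. It was 0.10 within batch 1 and -0.056 within batch 2. The sign of this difference turned without filtered-air mouse 5 or 6 or without ozone mouse 3 or 4, where it was -0.030, -0.14, -0.036 and -0.075.

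Il18, an inflammasome substrate, had the smallest difference of the 10 in size. It ranged from -0.13 to 0.074 in filtered air and from -0.17 to 0.19 after ozone, with medians of 0.015 and -0.030, and the difference was -0.0071 (SE 0.0573, 95% interval -0.13 to 0.12, limma adjusted p = 0.973). Ozone mice 1 and 6 were the highest and the lowest of all 12. It was -0.021 within batch 1 and 0.0068 within batch 2. The sign turned without filtered-air mouse 2, 3 or 4 or ozone mouse 4 or 6, where the difference lay between 0.0017 and 0.029.

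Il1rn, which encodes the antagonist of the IL-1 receptor, ranged from -0.19 to 0.13 in filtered air (median -0.0013) and from -0.046 to 0.24 after ozone (median 0.084). Ozone mice 1 and 2 lay above every filtered-air mouse, and 5 of 6 lay above the filtered-air median. The difference was 0.090 (SE 0.061, 95% interval -0.042 to 0.22, limma adjusted p = 0.529). Within the batches it was 0.13 and 0.050. It was 0.048 without filtered-air mouse 6 and 0.057 without ozone mouse 1.

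Il6, the ligand of the IL-6 receptor and gp130, ranged from -0.45 to 0.57 in filtered air (median -0.019) and from -0.070 to 0.37 after ozone (median 0.15). The ozone mice lay inside the filtered-air range, with an SD of 0.159 against 0.381. The difference was 0.15 (SE 0.144, 95% interval -0.16 to 0.46, limma adjusted p = 0.681). It was 0.20 within batch 1 and 0.10 within batch 2. It was 0.052 without filtered-air mouse 6, 0.074 without filtered-air mouse 5 and 0.28 without filtered-air mouse 4.

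Osm, the gene of oncostatin M, ranged from -0.29 to 0.17 in filtered air (median 0.079) and from -0.10 to 0.49 after ozone (median 0.12), and ozone mice 3, 5 and 6 lay above every filtered-air mouse. The difference was 0.16 (SE 0.101, 95% interval -0.061 to 0.37, limma adjusted p = 0.5). It was 0.080 without ozone mouse 3 and 0.090 without filtered-air mouse 4. The difference of Osm was -0.062 within batch 1 and 0.37 within batch 2. In limma's test of the interaction between exposure and batch the unadjusted p for Osm was 0.0256 and the adjusted p 1.00. None of the 10 cytokine genes passed that test after adjustment, as did 0% of all genes tested, and Osm alone had an unadjusted p under 0.05, against 2.6% of all genes.

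Il12b encodes the p40 subunit that IL-12 and IL-23 share and is a product of dendritic cells as well as macrophages. It ranged from -0.15 to 0.078 in filtered air (median 0.012) and from -0.26 to 0.0078 after ozone (median -0.096), and 0 of 6 ozone mice lay above the filtered-air median. The difference was -0.095 (SE 0.052, 95% interval -0.21 to 0.016, limma adjusted p = 0.391), and -0.060 without ozone mouse 6. Within batch 1 it was -0.027 and within batch 2 -0.16. Il12b rested on very few reads. Solving for whole reads in each batch gave 10, 21 and 26 reads in the filtered-air mice of batch 1 (mice 1, 3 and 5) and 22, 12 and 19 in its ozone mice (2, 4 and 5). In batch 2 it gave 7, 9 and 7 reads in filtered air (mice 2, 4 and 6) and 1, 7 and 0 after ozone (mice 1, 3 and 6). At this depth a difference smaller than the counting error cannot be seen, and the read numbers of the other 9 genes could not be resolved in both batches.

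Il10, which encodes the regulatory cytokine of the set, ranged from -0.12 to 0.082 in filtered air (median 0.032) and from 0.071 to 0.23 after ozone (median 0.089). All 6 ozone mice lay above the filtered-air median, and mice 1, 2 and 4 lay above every filtered-air mouse. The mean was 0.11 ± 0.0593 (SD, n = 6) after ozone against 0 ± 0.0866 in filtered air. The difference was 0.11 (SE 0.046, 95% interval 0.016 to 0.21, limma adjusted p = 0.213) and missed the threshold, with adjusted p-values from 0.166 to 0.384 when single mice were left out. It was 0.15 within batch 1 and 0.074 within batch 2.

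**Figure D2:**
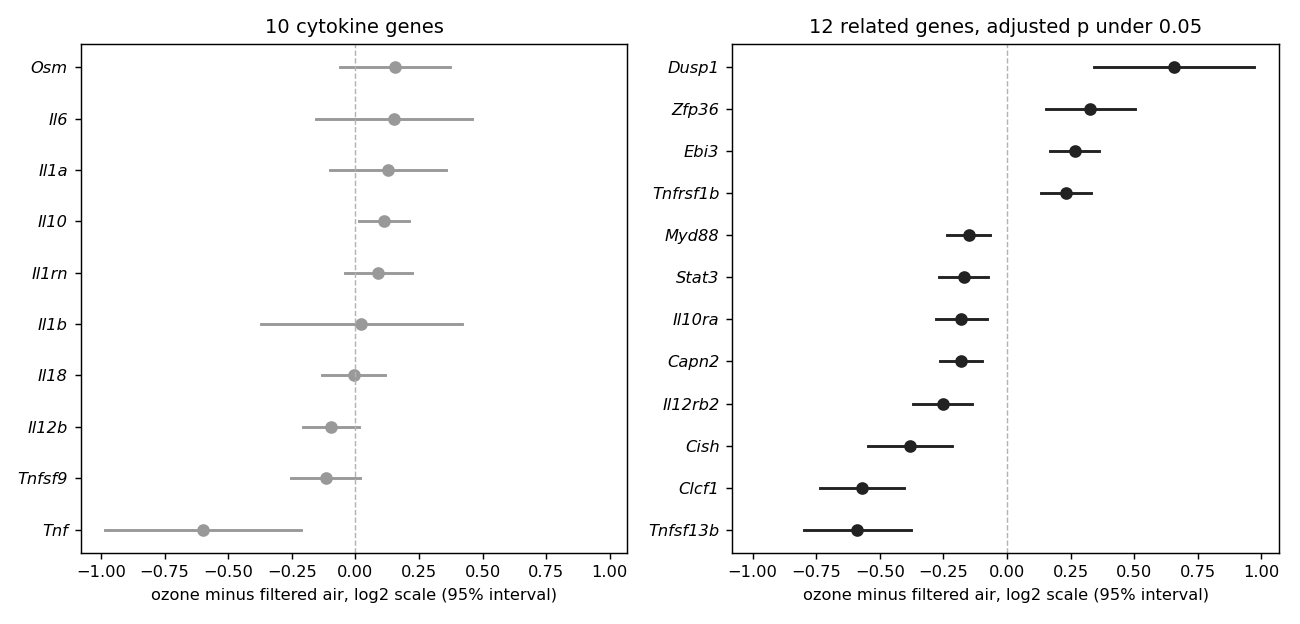
Difference between ozone and filtered air on the log2 scale with its 95% interval from limma (n = 6 mice per group), for the 10 cytokine genes on the left and the 12 related genes with an adjusted p under 0.05 on the right. Grey marks genes that missed the adjusted threshold. The intervals of Tnf and Il10 lie on 1 side of 0, while the other 8 cytokine intervals include it.

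Differences between mice of the same group cut across several cytokines. Filtered-air mouse 4 was the highest of its group in 6 of the 10 genes (Il1a, Il1b, Il1rn, Il6, Il12b and Il10) and the lowest in Osm. Filtered-air mouse 6 was the lowest of its group in 6 of the 10, namely Il1a, Il1b, Il18, Il1rn, Il6 and Tnf. In Il1b these mice lay at 0.60 and -0.72, in Il6 at 0.57 and -0.45, and in Il1a at 0.38 and -0.37.

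Filtered-air mouse 4 also had the lowest RNA integrity number of the series, 8.9. It had the highest summed level of its group in 7 of 10 marker lists of other cell types and the lowest for the alveolar macrophage markers (-1.04, with the group reaching 1.27). For monocyte markers, 6 of 6 tested, its sum was 2.14 where the filtered-air group ranged from -1.42 to 2.14 and the ozone group from -1.68 to 0.59. In this list 5 of 6 means were lower after ozone, with a median difference of -0.13 and 0 called. At an unadjusted p under 0.05 there was 1 of these 6, against 16.7% of all genes tested. For neutrophil markers, 6 of 9 tested, its sum was 1.41 where the groups ranged from -0.76 to 1.41 and from -0.38 to 0.46. In that list 3 means were lower and 3 higher, with a median difference of 0.035 and 0 called. Filtered-air mouse 6 had the lowest sum of its group in 2 of the 10 lists, for neutrophil (-0.76) and epithelial (-1.92) markers. Monocytes and neutrophils are known sources of IL-1 beta. The granulocyte genes Camp, Ly6g and Ngp lay above the lowest shared value in 0, 1 and 2 of the 12 mice. The 6 tested neutrophil markers, S100a8, S100a9, Retnlg, Csf3r, Mmp8 and Ltf, did so in all 12.

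For dendritic cell markers, 5 of 5 tested, 4 of 5 means were lower with a median difference of -0.043 and 0 called, and sums ranged from -1.07 to 0.89 in filtered air and from -1.05 to 0.51 after ozone. For B cell markers, 5 of 5 tested, all 5 means were lower after ozone with a median difference of -0.20 and 0 called, and sums ranged from -1.23 to 1.77 in filtered air and from -1.49 to -0.63 after ozone. For NK cell markers, 5 of 5 tested, all 5 means were lower with a median of -0.094 and 0 called, and sums ranged from -1.08 to 2.11 and from -0.89 to 0.13. At an unadjusted p under 0.05 there were 3 of the 5 B cell markers and 0 of the 5 NK cell markers, against 16.7% of all genes tested. Over the 10 lists of other cell types 1 of 54 tested genes was called, against 4.25% of all genes tested. This was Epcam, with a lower value after ozone. The part of RNA from other cells in the cytokine values was not tested. Without filtered-air mouse 4 and ozone mouse 5 together, a setting chosen after the data were seen, 1 of the 10 cytokine genes was called, Tnf with a difference of -0.77 (limma adjusted p = 0.0117).

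**Figure D3:**
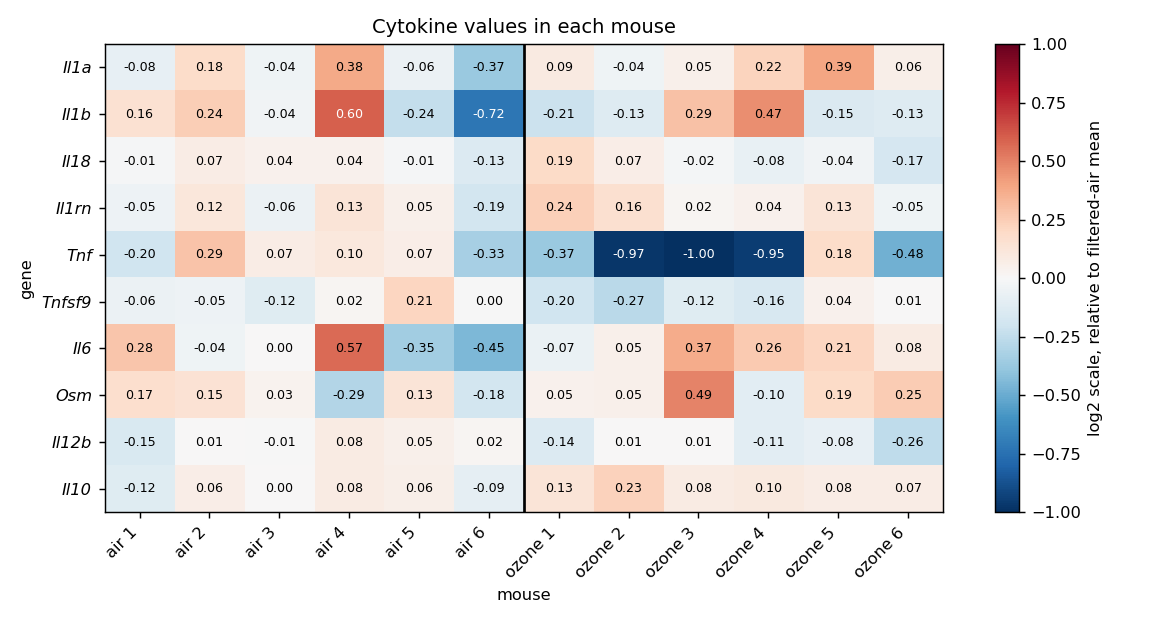
Values of the 10 cytokine genes (rows) in each of the 12 mice (columns, filtered air on the left of the line, ozone on the right) on the log2 scale relative to the filtered-air mean, with red above and blue below 0. The columns of filtered-air mice 4 and 6 show opposite colours in Il1a, Il1b and Il6, and Tnf is blue in every ozone mouse except mouse 5.

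The genes most like Tnf and Il10 over the 12 mice were looked up as a description, since these 2 had the smallest p-values in each direction. Among 19632 other genes the highest correlations with Tnf were those of Lcmt2 (Pearson r = 0.927), Epsti1 (r = 0.924) and Egr1 (r = 0.919), an immediate early transcription factor. The highest correlations with Il10 were those of Pkig (r = 0.906), Stbd1 (r = 0.900) and the metallothionein gene Mt2 (r = 0.895). Of these 6 genes only Lcmt2 was called between the groups, with a difference of -0.16 (limma adjusted p = 0.0468). The values share libraries and groups, and the genes were picked for their correlation, so no test is attached.

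Genes around the cytokines in the same pathways included some that passed the test. Of 97 listed genes for related ligands, receptors, processing enzymes, signalling proteins and mRNA stability factors, 92 were tested and 12 had an adjusted p under 0.05 in limma, or 13% of them, beside 4.25% of all genes tested. Of these 12, 4 were higher after ozone (2.41% of all genes were) and 8 were lower (1.84% of all genes were). The count was 2 after quantile normalization, 7 with a variance trend, 7 without ozone mouse 3 and 0 within either batch alone. Over all genes tested there were 834 calls in the fit reported, 171 after quantile normalization and 611 with a variance trend. There were 571 without ozone mouse 3, 90 in batch 1 and 0 in batch 2. At an unadjusted p under 0.05 there were 29 of the 92 related genes, against 16.7% of all genes tested. The median difference of the 92 genes was -0.024. Values for listed genes that missed the threshold are given as examples chosen after they were seen. The lists were written with earlier results of these data known, and no test of the lists as such was made.

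**Figure D4:**
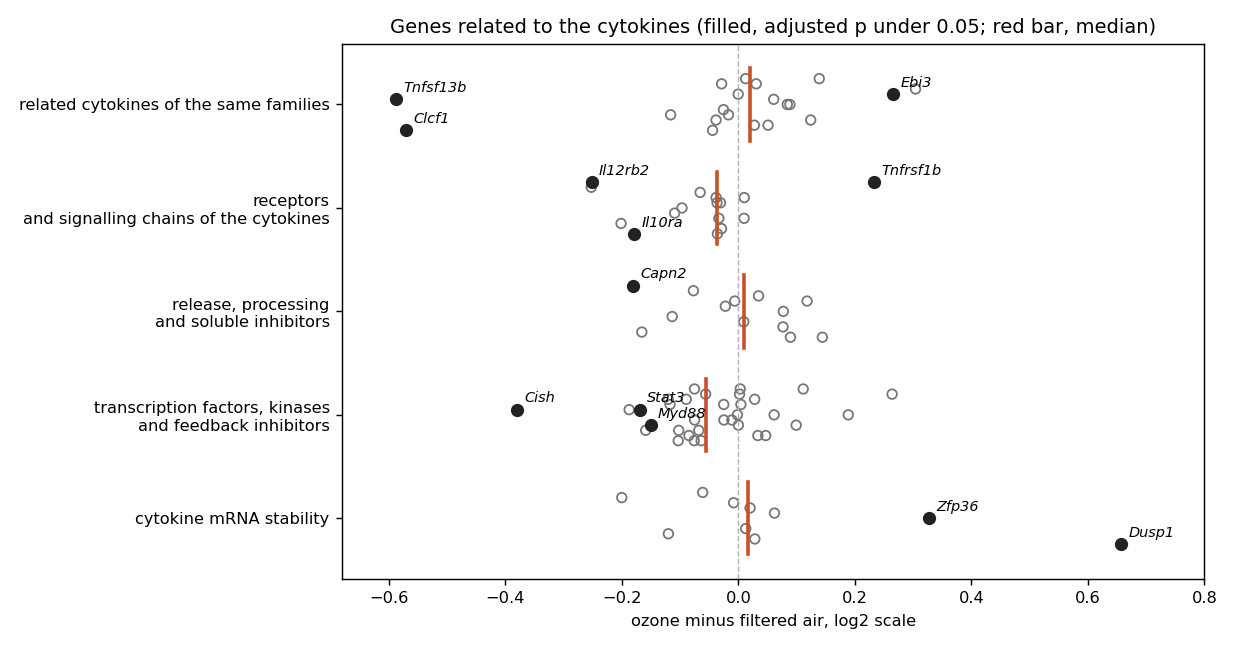
Difference between ozone and filtered air on the log2 scale for the 92 tested genes related to the cytokines, 1 point per gene in 5 lists, with filled and named points for an adjusted p under 0.05 in limma and a red bar for the median of each list. Clcf1 and Tnfsf13b lie farthest to the left, at -0.57 and -0.59, and Dusp1 farthest to the right, at 0.66.

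Among related cytokines of the same families, 3 of 20 tested genes were called, 1 higher and 2 lower, with a list median of 0.020. Clcf1, a gp130 family cytokine, fell by 0.57 (SE 0.077, limma adjusted p = 0.00142), with values from -0.12 to 0.23 in filtered air and from -0.80 to -0.38 after ozone. Tnfsf13b, which encodes the B cell survival factor BAFF, fell by 0.59 (SE 0.099, limma adjusted p = 0.00431), with values from -0.21 to 0.40 and from -0.78 to -0.45. Ebi3, a subunit of IL-27, rose by 0.27 (SE 0.046, limma adjusted p = 0.00491), with values from -0.082 to 0.068 and from 0.19 to 0.36. The groups did not overlap in any of these 3 genes.

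The partner subunits of the IL-12 family did not pass. Il27 had a difference of 0.088 (limma adjusted p = 0.38), Il12a of 0.060 (adjusted p = 0.615) and Il23a of -0.029 (adjusted p = 0.88). Lif, a further gp130 ligand, had a difference of 0.30 (limma adjusted p = 0.11). Lta and Ltb, the lymphotoxin genes of the TNF superfamily, had differences of -0.026 and -0.044. Tnfsf13 (0.14, limma adjusted p = 0.0522) and Tnfsf14 (0.12, adjusted p = 0.0797) of the same superfamily were higher after ozone and missed the threshold. Over the tested genes of the list 11 means were higher and 9 lower. Of the listed genes, 5 were not tested: Il24 and the IL-36 family genes Il1f5, Il1f6 and Il1f8 lay above the lowest shared value in 0 mice and Il19 in 3.

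Of 16 receptor genes, 3 were called, 1 higher and 2 lower, and the list median was -0.038 with 13 of 16 means lower after ozone. Tnfrsf1b, the gene of TNF receptor 2, rose by 0.23 (SE 0.045, limma adjusted p = 0.00985), with values from -0.11 to 0.065 in filtered air and from 0.11 to 0.34 after ozone. Tnfrsf1a, the gene of TNF receptor 1, had a difference of -0.034 (adjusted p = 0.696). Il12rb2, a chain of the IL-12 receptor, fell by 0.25 (SE 0.054, limma adjusted p = 0.0164), with values from -0.11 to 0.15 and from -0.37 to -0.16.

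Il10ra, the ligand-binding chain of the IL-10 receptor, fell by 0.18 (SE 0.047, limma adjusted p = 0.0472). It lies outside the naming rule and was chosen after its value was seen, as was Stat3. The call of Il10ra held without filtered-air mouse 5 or ozone mouse 2 and was lost in the other 10 fits without 1 mouse, with adjusted p-values up to 0.103. Il1r1, the signalling receptor of IL-1, had a difference of -0.25 (adjusted p = 0.058) and the decoy receptor Il1r2 of -0.097 (adjusted p = 0.62). Il6ra had a difference of -0.066, Il6st of -0.11 and Osmr of -0.038, and none of the 3 passed.

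Among 13 genes of release, processing and soluble inhibition, Capn2 was the only one called. This calpain subunit fell by 0.18 (SE 0.039, limma adjusted p = 0.0169), with values from -0.065 to 0.095 in filtered air and from -0.23 to -0.14 after ozone. Adam17, the sheddase that frees TNF from the cell surface, had a difference of 0.12 that missed the threshold (limma adjusted p = 0.111). Its values after ozone (0.059 to 0.22) all lay above those in filtered air (-0.095 to 0.052). Rhbdf1 of the same list had a difference of -0.11 that missed it too (limma adjusted p = 0.0847), with 5 of 6 ozone mice below every filtered-air mouse. Of the inflammasome genes, Nlrp3 had a difference of -0.17 (adjusted p = 0.105), Casp1 of -0.022 (adjusted p = 0.844) and Pycard of 0.035 (adjusted p = 0.873). Il18bp, which encodes the soluble inhibitor of IL-18, had a difference of 0.077 (adjusted p = 0.492).

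Of 33 genes of transcription factors, kinases and feedback inhibitors, 3 were called and all were lower, with a list median of -0.056. Cish, a feedback inhibitor of STAT5 signalling, fell by 0.38 (SE 0.077, limma adjusted p = 0.0122), with values from -0.25 to 0.13 in filtered air and from -0.51 to -0.15 after ozone. Myd88, the adaptor of Toll-like and IL-1 receptors, fell by 0.15 (SE 0.039, limma adjusted p = 0.046), and Stat3, which carries IL-10 and IL-6 signals, fell by 0.17 (SE 0.045, limma adjusted p = 0.0484). The groups overlapped in these 3 genes. The call of Myd88 held without ozone mouse 1 or 5 and was lost in the other 10 fits without 1 mouse (adjusted p up to 0.11), and that of Stat3 held without filtered-air mouse 3 and was lost in the other 11 (up to 0.0988).

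In this list 22 of 33 means were lower after ozone and 11 higher. Of the genes that missed the threshold, Tnfaip3, which encodes the inhibitor A20, had a difference of 0.26 (limma adjusted p = 0.108), Tnip1 of 0.19 (adjusted p = 0.102), Nfkb2 of -0.19 (adjusted p = 0.0714) and Nfkbia of -0.16 (adjusted p = 0.374). Socs3, the feedback inhibitor of gp130 signalling, had a difference of -7.46e-05 (SE 0.1, adjusted p = 1.00).

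Of 10 genes that govern the stability of cytokine mRNA, 2 were called, both higher after ozone. Dusp1, a phosphatase of the p38 MAP kinase and itself an AU-rich mRNA, rose by 0.66 (SE 0.147, limma adjusted p = 0.0206), with values from -0.42 to 0.30 in filtered air and from 0.31 to 1.14 after ozone. The call of Dusp1 failed without filtered-air mouse 1 (adjusted p = 0.0501) and without ozone mouse 3 (adjusted p = 0.055). Zfp36 rose by 0.33 (SE 0.081, limma adjusted p = 0.0354), with values from -0.25 to 0.15 and from 0.17 to 0.54, so that the groups did not overlap in either gene.

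The difference of Zfp36 was 0.11 within batch 1 and 0.54 within batch 2. In limma's test of the interaction the unadjusted p for Zfp36 was 0.00308 and the adjusted p 1.00, so that a difference between the batches did not pass. The call of Zfp36 failed without filtered-air mouse 2, 3, 4 or 6 and without ozone mouse 3, 5 or 6, with adjusted p-values between 0.0528 and 0.0847. The relatives Zfp36l1 and Zfp36l2 had differences of 0.028 and -0.0083. Zc3h12a, which encodes the endonuclease regnase-1 that cleaves Il6 and other cytokine mRNAs, had a difference of -0.20 (limma adjusted p = 0.131). Whether the level of Zfp36 bears on that of Tnf in these mice was not tested.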

How the data were processed

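The authors deposited 1 table of log2 values, which its file name describes as variance-stabilized and batch-corrected. Per the submitters' processing notes, the tools were cutadapt, STAR 2.7.7a, Salmon 1.5.2, DESeq2 1.26.0, R 3.6.0 and limma 3.42.2 with build mm10, and the annotation is not given in the sources used here. All 12 columns matched 1 sample title each, 0 columns were left over, and no pair of columns was identical. Ozone was compared with filtered air in R 4.3.3 by limma 3.58.1. The fit had a term for the sorting batch, no variance trend and Benjamini-Hochberg adjustment over all 19633 genes in which at least 6 of 12 mice lay above the lowest value shared by mice of their batch. A lone mouse without reads is not seen by this filter. P-values measure the spread between mice. The fit was tested on simulated data.

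The 10 genes, the related lists and the tests were chosen with earlier results of these data known. Named are all 10 genes, the 10 related genes with the smallest p among those called, and the 3 best correlates of 2 members. Listed names absent from the table were matched through RefSeq synonyms. For relative depth, the step of 1 read above a shared minimum was inverted with the inverse hyperbolic sine form of the transformation. Whole reads of a member were then sought below 400 in its lowest mouse and accepted only where the root mean square distance was under 0.05 read and the next solution at least 2 times worse in both batches. For Il12b it was 0.0334 and 0.0155, against 0.12 and 0.0605 for the next solution. The check covered only genes and batches whose lowest mice had 0 reads, and not a higher start such as that of Il12b in batch 1. Of these 2079, 1367 were resolved, and 96.9% of the resolved gave 0. This step was added after the data were seen. The 3′ UTR of a gene is that of the GENCODE M21 basic transcript with the longest coding sequence.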

Additional observations from a re-analysis of the deposited data

Results flagged for a closer look

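The outermost mouse of each group of 6 was compared with its neighbour for the 10 cytokine genes and the 12 called related genes. In 1 of 44 combinations of gene and group the gap, as a share of the range of the group, exceeded Dixon's 95% critical value, and chance gives about 1 in 20. Filtered-air mouse 1 lay at -0.15 in Il12b, while the next lowest of its group lay at -0.0058 (ratio 0.63). It had 10 reads by the whole-read solution, where the other filtered-air mice of its batch had 21 and 26.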

How the results depend on the processing

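The count of cytokine genes with an adjusted p under 0.05 was 0 in the fit reported and under each planned setting that used all 12 mice or 1 batch. Without single mice it ranged from 0 to 1, and with filtered-air mouse 4 and ozone mouse 5 both left out it was 1, in both cases Tnf (-0.77). Of 230 results for the 10 genes under other settings, 214 kept direction and side of the threshold, 2 newly passed and 14 changed sign. The changes of sign concern Il1b in batch 2 (-0.056) and without single mice (-0.14 to 0.16), Il18 with RNA integrity as covariate (0.00042), in batch 2 (0.0068), without single mice (-0.052 to 0.029) and without both mice (0.010), and Osm in batch 1 (-0.062). The cause was not tested.

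The count of 12 related genes became 7 with a variance trend, 2 after quantile normalization and 0 in batch 1 or batch 2 alone, which use fewer mice. Calls over all genes tested also fell there, from 834 to 611, 171, 90 and 0. The count of related genes ranged from 7 (without ozone mouse 3) to 12 without single mice. With all 12 mice above the shared minimum it was 13, with no filter 11 and without a batch term 17. Of 276 results for these genes, 93 lost the call in the same direction and 0 changed sign. Same-numbered mice are different animals, and 4 of 6 pairs had correlated deviations over 0.1 (from -0.0026 to 0.28), with 3 of 6 ozone mice closest to their own number, so they were not treated as paired. With the replicate block 0 cytokine genes and 10 related genes were called, 9 of them among the 12. The 6 mice per group and the unknown total depth limit the precision.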
